A study of Mus musculus with 12 samples.

Results

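The UDP-glucuronosyltransferases (UGT), the sulfotransferases (SULT) and the glutathione S-transferases (GST) were compared in the livers of mice given concanavalin A (Con A), with and without mesenchymal stem cells of human Wharton's jelly (hWJ-MSCs). Members were all genes of the expression table whose symbol starts with Ugt and a digit, with Sult and a digit, or with Gst and a class letter (a, k, m, o, p, t or z). This gave 49 of 11289 genes. The UGT family held 18 of them, 7 of Ugt1, 8 of Ugt2, 2 of Ugt3 and 1 of Ugt8. The SULT family held 12, with 5 of Sult1, 5 of Sult2, 1 of Sult3 and 1 of Sult5. The GST family held 19, of which 7 were of class mu, 4 alpha, 3 theta, 2 pi, and 1 each kappa, omega and zeta.

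Liver RNA was sequenced from 12 C57BL/6J mice, 4 in each group, and all ages are given as 8 to 10 weeks. Control mice carry the label of a control, and the labels do not say whether they were injected. Con A + PBS mice received a single dose of 15 mg/kg Con A into the tail vein and, 30 min later, phosphate-buffered saline, and Con A + hWJ-MSCs mice received the same dose of Con A followed by 2000000 human cells in saline. Livers were taken 24 h later. The labels call the cells hUC-MSCs or MSCs, and the methods of the study give fewer cells and a younger age than the labels do. Con A is a plant lectin that activates T cells and causes an acute hepatitis in mice. The livers were whole tissue, so that fewer cells of a type and less RNA per cell cannot be told apart.

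Conjugation is the step in which a small molecule is joined to a polar group so that it can leave the body in bile or urine. UGTs transfer glucuronic acid from UDP-glucuronic acid to bilirubin, steroids, bile acids and drugs. SULTs transfer sulfonate from the donor PAPS to hormones, bile acids and phenols, and GSTs join the tripeptide glutathione to reactive electrophiles. The hepatocyte is the main site of all of them in the liver.

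Expression is given as the value in the deposited table, a whole number that had already been normalized between mice and that is not a read count. Changes are differences of log2(value + 1) with their standard error, from a single limma fit of all 12 mice. A gene was called higher or lower at a Benjamini-Hochberg adjusted p below 0.05 over all 11289 genes and a fold change above 1.5. Of the 6 hepatocyte markers listed, 5 were in the table, and their summed value was between 615429 and 859500 in control, 473856 and 515597 in Con A + PBS and 504559 and 526975 in Con A + hWJ-MSCs mice. Albumin was at the largest value of the table, 341028, in all 12 mice, so it could show no change and added the same amount to each sum. On the first principal component of all genes, with 64.8% of the variance, control mice lay between -79.6 and -66.9, Con A + PBS mice between 37.5 and 63.8, and Con A + hWJ-MSCs mice between -0.879 and 33.2. Con A + PBS replicate 4 stood apart on the second, at -55.2.

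Most conjugation enzyme genes were lower 24 h after Con A. Of the 49 members, 35 (71.4%) were called lower in Con A + PBS than in control mice, where 19.2% of all genes tested were called lower. Only 4 members (8.16%) were called higher, Gsta1, Sult1e1, Gstp2 and Gstp1, against 19.5% of all genes. The median change of the members was -1.91 on the log2 scale, beside 0.05 over all genes. In 36 members all 4 Con A + PBS mice were below all 4 control mice, an arrangement that 23.4% of all genes had, and in 3 members all were above, which 27.1% of all genes had. Without Con A + PBS replicate 4, 36 members were called lower and 4 higher.

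The 3 families had like shares of lower genes. In the UGT family 13 of 18 were lower (72.2%), with a median change of -1.78. In the SULT family 8 of 12 were lower (66.7%), with a median of -2.09, and in the GST family 14 of 19 (73.7%), with a median of -1.91. The families were not tested against each other. Within them, isoforms differed widely, with changes from -4.09 to 0.11 among UGTs, from -3.75 to 2.58 among SULTs and from -4.19 to 4.18 among GSTs. The table kept only genes with a value of 64 or more in at least 2 mice. For this reason Gsta1 and Gstp2, low in control mice, and Gsta2, Sult1c2 and Ugt1a10, low after Con A, were in it only through the group in which they were high. Among the other 44 members, 32 were lower and 2 higher, and the median change was -1.86.

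**Figure D1:**
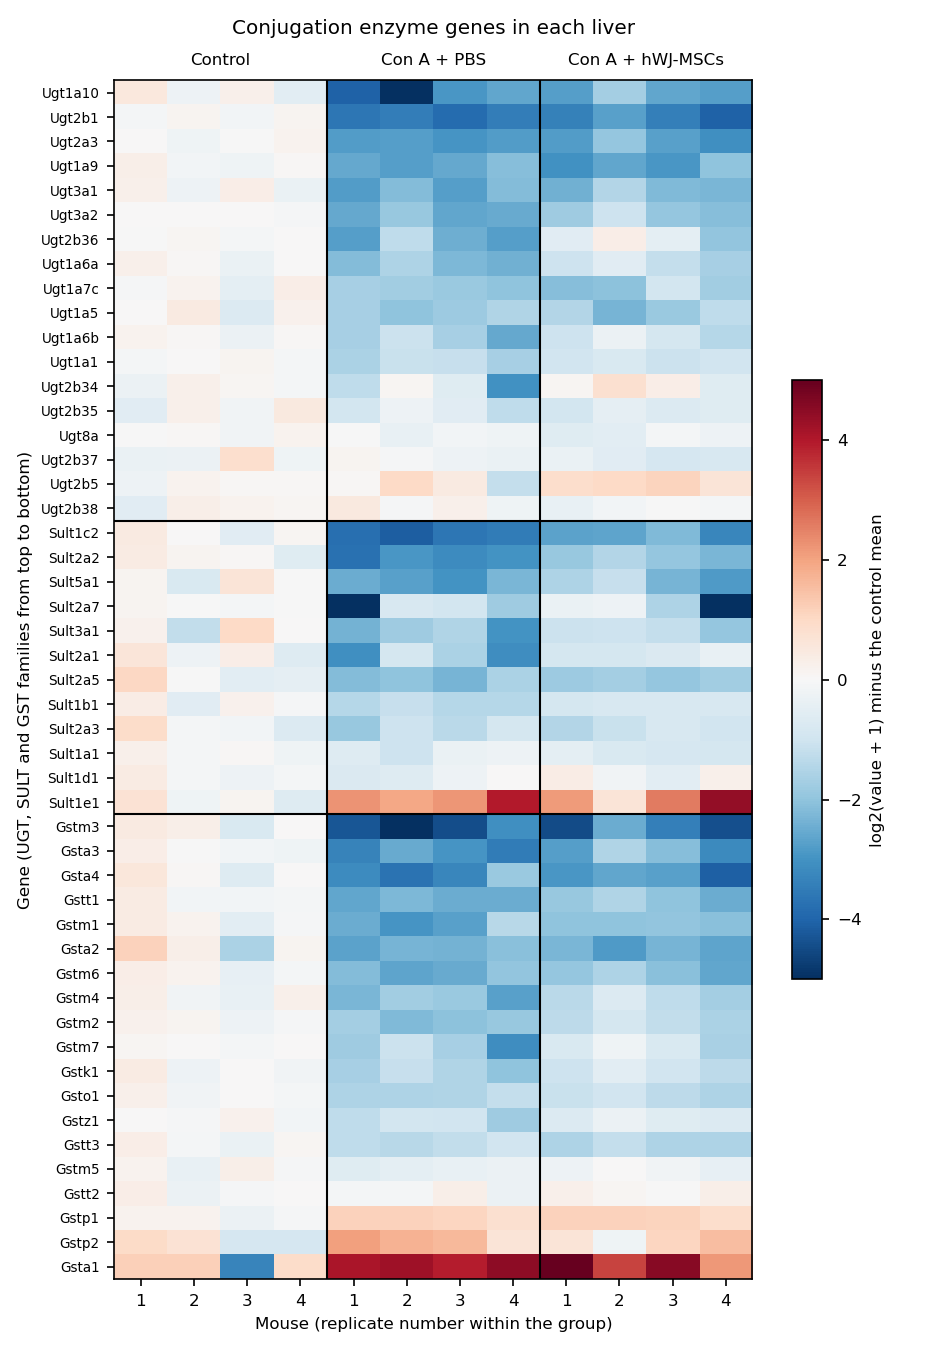
Log2(value + 1) of each of the 49 members (vertical axis, by family and by the Con A change) in each of the 12 mice (horizontal axis), minus the mean of the 4 control mice, with red above and blue below control. Blue fills most of the Con A + PBS columns and is paler in the Con A + hWJ-MSCs columns, while Gsta1, Gstp1 and Sult1e1 are red in both. The colours end at 5 above and below control.

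Among the UGTs, all 7 Ugt1 genes were lower after Con A, in every mouse without overlap with control. These genes are alternative first exons joined to shared later exons, and they overlap each other within chr1:88055388-88219003 (mm10). Ugt1a1, the enzyme that conjugates bilirubin, had values of 7908, 8498, 9353 and 7908 in control, of 2776, 3902, 3786 and 2632 in Con A + PBS and of 4354, 5016, 4022 and 4354 in Con A + hWJ-MSCs mice. The 3 groups did not overlap for this gene. It fell by 1.38 ± 0.14 (SE) after Con A (limma, adjusted p = 1.02e-05). Ugt1a10, a form known mainly from the gut, was at 164, 94, 136 and 78 in control and at 6, 0, 14 and 18 in Con A + PBS mice. With cells its values were 16, 34, 18 and 16, so that it was in the table only through control mice. It fell by 4.09 ± 0.75 after Con A (limma, adjusted p = 0.000635), a size that depends on the pseudocount and on 1 mouse. The change was -2.77 with a pseudocount of 10 and -3.18 without Con A + PBS replicate 2, the mouse at 0. The other 5 genes of the locus, Ugt1a9, Ugt1a6a, Ugt1a7c, Ugt1a5 and Ugt1a6b, had changes between -2.49 and -1.73. Because these transcripts share their later exons, reads from those exons cannot be given to one of them with certainty.

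The Ugt2 genes split. They lie in one cluster with 3 Sult1 genes, 11 members in all, in chr5:86889767-87591611. Ugt2b1, which conjugates steroids and drugs, had values of 6046, 7140, 5925 and 7140 in control, of 530, 592, 450 and 598 in Con A + PBS and of 634, 1008, 604 and 392 in Con A + hWJ-MSCs mice. Both groups given Con A were far below control, and the gene was 12.1 times lower after Con A (log2 change -3.60 ± 0.22, limma adjusted p = 2.21e-07). Ugt2a3, Ugt2b36 and Ugt2b35 were also lower, with changes of -2.82, -2.31 and -0.76. Ugt2b5, which lies between them, had 7966, 10972, 9880 and 9880 in control, 9880, 18948, 13253 and 4202 in Con A + PBS, and 17674, 18948, 20917 and 15125 in Con A + hWJ-MSCs mice. The Con A + PBS mice lay on both sides of the control mice, and the change was 0.07 ± 0.35, with a 95% interval from -0.68 to 0.82 and an adjusted p of 0.873 (limma). Ugt2b38, Ugt2b37 and Ugt2b34 were not called either, at 0.11 ± 0.20, -0.13 ± 0.23 and -1.2 ± 0.52. The interval of Ugt2b34 ran from -2.33 to -0.06 and so included large falls. Its values were 3652, 9428, 5754 and 1054 in Con A + PBS mice, the lowest being that of replicate 4, against 7140 to 10370 in control, and without that mouse the change was -0.58 (limma, adjusted p = 0.163). It was called lower without Con A + PBS replicate 2, the highest of these mice, at -1.63, and with a replicate block (limma, adjusted p = 0.0125 and 0.0169). The call of Ugt2b35 was lost without control replicate 4 (limma, adjusted p = 0.0555).

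Sequence relation ran alongside this split only in part. Over their aligned transcripts Ugt2b5 was identical to Ugt2b38 at 95.7% of positions, to Ugt2b37 at 93.6% and to Ugt2b36 at 87.2%, and to Ugt2b1 and Ugt2b34 at 72.8% and 72.0%. Of these, Ugt2b36 and Ugt2b1 were called lower. In Ugt2b5, 41.7% of the 50-base stretches of its transcript occurred in another member, and for Ugt2b38 this was 37.4%, so that some of their reads could be exchanged.

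**Figure D2:**
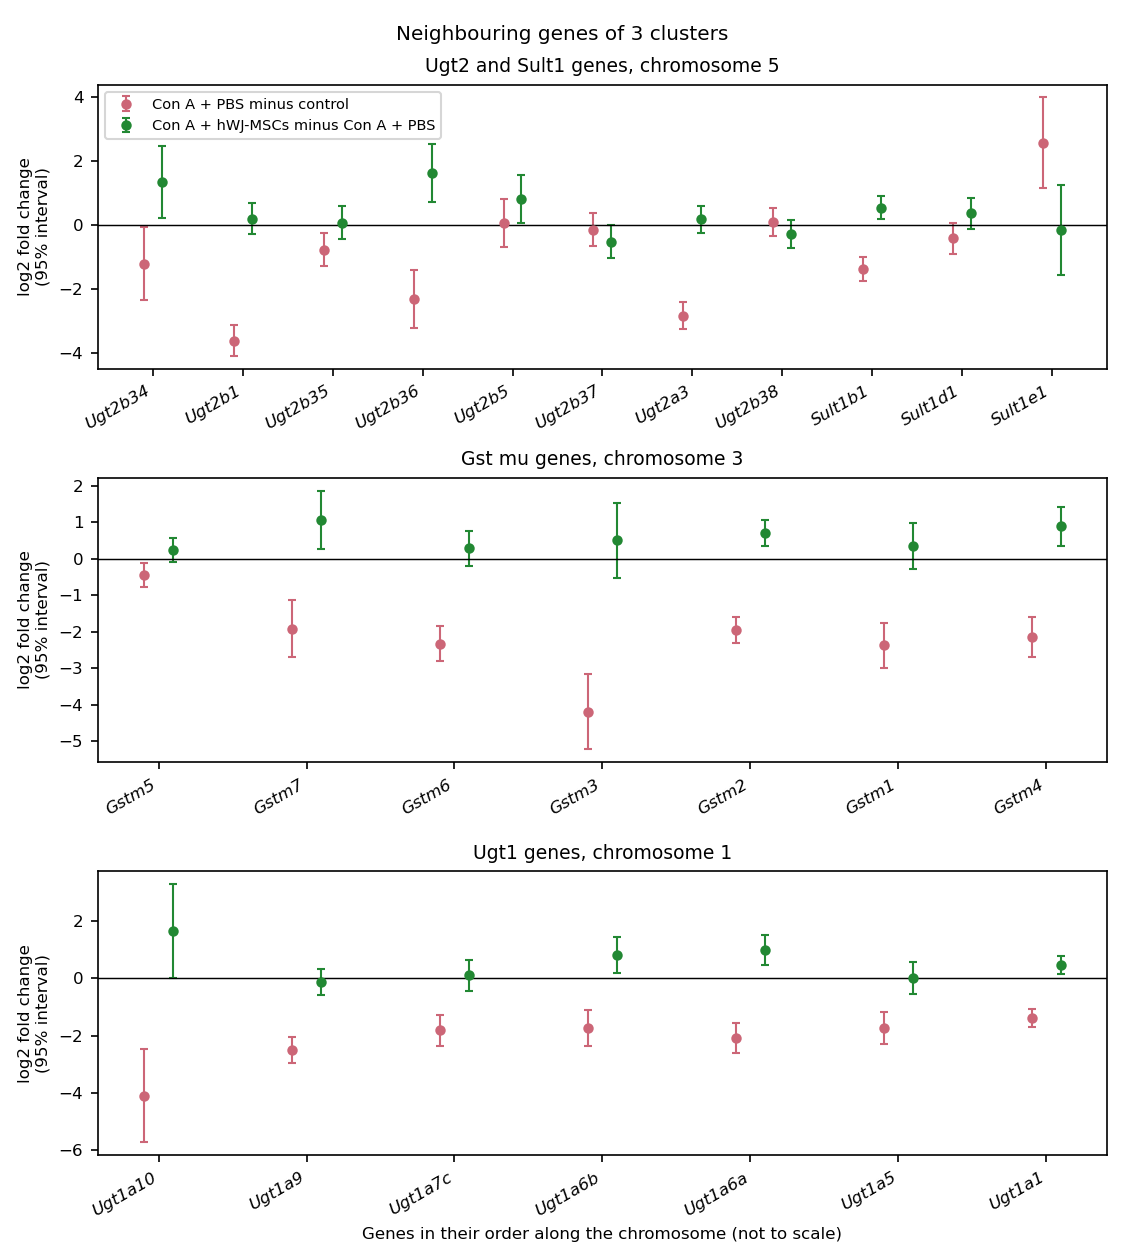
Log2 fold change with its 95% interval (vertical axes, limma) for Con A + PBS minus control (red) and Con A + hWJ-MSCs minus Con A + PBS (green), for members in their order along 3 gene clusters (horizontal axes, not to scale). In the chromosome 5 cluster Ugt2b5 is at 0.07 among neighbours down to -3.60 and Sult1e1 ends the row at 2.58, whereas all 7 Ugt1 genes and 6 of the 7 Gst mu genes were called lower.

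Both Ugt3 genes fell. Ugt3a2 was at 8917 in 3 control mice and at 8542 in the fourth, and at 1498, 2400, 1462 and 1530 in Con A + PBS mice. With cells it had 2556, 4289, 2318 and 1992. The control and Con A + PBS groups did not overlap, and the change was -2.39 ± 0.22 (limma, adjusted p = 3.7e-06). Ugt3a1, which uses N-acetylglucosamine as its sugar, had 1875, 1336, 1978 and 1242 in control 228, 345, 232 and 352 in Con A + PBS and 298, 565, 336 and 322 with cells, a Con A change of -2.47 ± 0.23 (adjusted p = 4.53e-06, limma). Equal values in several mice, as in Ugt3a2, occurred in 20 of the 147 sets of 4 mice (49 members in 3 groups), in 16 members. Ugt8a, the ceramide galactosyltransferase of myelin-forming cells, was low and overlapped between groups, with 82, 88, 74 and 94 in control, 82, 64, 77 and 73 in Con A + PBS and 55, 58, 78 and 70 in Con A + hWJ-MSCs mice.

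Among the SULTs, Sult1c2 and Sult2a2 fell most, but Sult1c2 was in the table only through control mice, which favours a fall. Sult2a2, a sulfotransferase of bile acids and hydroxysteroids, was at 8920, 7356, 6952 and 4386 in control, at 502, 878, 760 and 831 in Con A + PBS and at 1810, 2448, 1729 and 1362 in Con A + hWJ-MSCs mice. None of the 3 groups overlapped. The gene was 9.2 times lower after Con A (log2 change -3.20 ± 0.24, limma adjusted p = 9.4e-07). Sult2a1 varied more, with 8248, 4466, 6764 and 3406 in control, and 652, 2942, 1820 and 632 after Con A. Its change of -2.15 ± 0.45 was called (limma, adjusted p = 0.00145). Sult2a5 and Sult2a3 fell by 2.02 and 1.29. Sult2a7 was listed at 0 in Con A + PBS replicate 1 and had 54, 50 and 27 in the other mice of that group, against 89 to 104 in control, and it was not called (adjusted p = 0.15, limma). All 5 Sult2a genes lie within chr7:13623967-14492926, and 62.1% of the 50-base stretches of the Sult2a2 transcript occurred in another member.

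Sult1c2 had 165, 125, 82 and 131 in control, 8, 6, 9 and 10 in Con A + PBS and 18, 19, 26 and 12 in Con A + hWJ-MSCs mice. The change after Con A was -3.75 ± 0.33 (limma, adjusted p = 2.77e-06), and with a pseudocount of 10 it was -2.86, less than the -3.19 of Sult2a2 (limma). Sult3a1 had 2004, 752, 3452 and 1784 in control, 336, 510, 612 and 220 in Con A + PBS and 820, 862, 770 and 458 in Con A + hWJ-MSCs mice, and fell by 2.16 ± 0.42 (limma, adjusted p = 0.000941). For Sult5a1 the values were 248, 134, 360 and 222 against 40, 34, 28 and 46, and 78, 102, 45 and 31 with cells, a Con A change of -2.61 ± 0.36 (limma, adjusted p = 8.64e-05). In each of these 3 genes the control and Con A + PBS mice did not overlap.

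Of the other Sult1 genes, 2 were not called after Con A. Sult1a1, which sulfonates phenols and drugs, had 6764, 5402, 5925 and 4938 in control, 3652, 2763, 4570 and 4840 in Con A + PBS and 4113, 3366, 3201 and 3130 in Con A + hWJ-MSCs mice. All 4 Con A + PBS mice were below control, but the fold of 1.48 missed the limit (log2 change -0.56 ± 0.18, limma adjusted p = 0.0157). Sult1d1 was not called, at -0.40 ± 0.23. Sult1b1, which lies beside it, fell by 1.36 ± 0.17.

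Sult1e1, the estrogen sulfotransferase, went the other way. It was at 186, 95, 122 and 71 in control, at 527, 425, 523 and 1729 in Con A + PBS and at 488, 176, 678 and 2343 in Con A + hWJ-MSCs mice. All 4 Con A + PBS mice were above control, replicate 4 by the most. The gene rose 5.98 times after Con A (log2 change 2.58 ± 0.65, limma adjusted p = 0.00511), and by 2.13 on the log2 scale without replicate 4 (limma, adjusted p = 0.0147).

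Among the GSTs, Gstm3 of the mu class and Gsta3 and Gsta4 of the alpha class fell most. Gstm3 had 1176, 1034, 500 and 871 in control, 43, 26, 39 and 100 in Con A + PBS and 37, 153, 80 and 40 in Con A + hWJ-MSCs mice. It was 18.2 times lower after Con A (log2 change -4.19 ± 0.48, limma adjusted p = 1.92e-05). Gsta3 had 18862, 15018, 13896 and 13142 in control and 1488, 2596, 1929 and 1352 after Con A, with 2211, 5362, 3432 and 1639 after Con A with cells. Its change of -3.08 ± 0.32 was 8.46-fold (limma, adjusted p = 9.25e-06). For both genes the Con A + PBS and control mice were widely separate, and the mice given cells overlapped with those given PBS. Gsta4, which detoxifies products of lipid peroxidation, fell by 3.00 ± 0.41.

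Of the 7 mu genes, which lie side by side within chr3:107895821-108044894, 6 were lower and Gstm5 missed the fold limit at -0.44 ± 0.15. Gstm1 had 20852, 17639, 10932 and 15068 in control, 2784, 2054, 2415 and 6032 in Con A + PBS and 3856, 3912, 4032 and 3639 in Con A + hWJ-MSCs mice. The change of -2.38 ± 0.29 was called (limma, adjusted p = 3.06e-05), and Con A + PBS replicate 4 was the highest of its group. Gstm6, Gstm4, Gstm2 and Gstm7 were lower, with changes of -2.33, -2.15, -1.95 and -1.91. Gstt1, of the theta class, had 6494, 4440, 4440 and 4530 in control, 806, 1022, 868 and 871 in Con A + PBS and 1302, 1709, 1201 and 875 in Con A + hWJ-MSCs mice, and fell by 2.46 ± 0.19 (limma, adjusted p = 1.03e-06). Its neighbour Gstt3 fell by 1.2 ± 0.15, and Gstt2, in the same cluster, was at -0.05 ± 0.15 with an interval from -0.38 to 0.27.

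The single members of 3 GST classes were also lower. Gstk1, a mitochondrial and peroxisomal enzyme, had 2142, 1358, 1635 and 1417 in control, 516, 728, 573 and 394 in Con A + PBS and 783, 1123, 837 and 643 in Con A + hWJ-MSCs mice. Gsto1 had 2192, 1598, 1838 and 1724 in control, 630, 625, 640 and 804 in Con A + PBS and 849, 928, 730 and 624 with cells. Gstz1, which is also the maleylacetoacetate isomerase of tyrosine breakdown, had 11588, 10944, 13212 and 10346 in control, 4739, 6036, 5910 and 3359 in Con A + PBS and 7126, 9400, 7608 and 7126 with cells. Control and Con A + PBS mice did not overlap in any of the 3 genes, whose changes were -1.58 ± 0.21, -1.44 ± 0.14 and -1.23 ± 0.18 (limma, adjusted p = 6.52e-05, 7.44e-06 and 0.000121).

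Of the 4 members that rose after Con A, 3 were GSTs, but Gsta1 and Gstp2 were in the table only through mice given Con A. Among the 44 members not bound in such a way, 2 rose, Gstp1 and Sult1e1. Gstp1, the pi class enzyme, had 3967, 3967, 2896 and 3395 in control, 7930, 7930, 7330 and 6147 in Con A + PBS and 7930, 7930, 7595 and 6516 in Con A + hWJ-MSCs mice. Both groups given Con A were wholly above control, and the rise was 2.07-fold (log2 change 1.05 ± 0.13, limma adjusted p = 4.83e-05). Its near copy Gstp2 was low, with 37, 31, 10 and 10 in control, 81, 65, 60 and 30 in Con A + PBS and 30, 16, 40 and 56 with cells. Gstp2 overlapped between the groups, and its rise of 1.53 ± 0.51 (limma, adjusted p = 0.0225) was lost in 3 of the 12 fits that left out a mouse, without Con A + PBS replicate 1 (adjusted p = 0.0671), control replicate 3 (0.065) or control replicate 4 (0.0652). In Gstp1 and Gstp2, 62.3% and 64.3% of the 50-base stretches were shared with each other, so reads of the much higher Gstp1 could be placed on Gstp2.

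Gsta1 had 44, 44, 1 and 36 in control, 328, 371, 298 and 436 in Con A + PBS and 612, 202, 461 and 87 in Con A + hWJ-MSCs mice. All 8 mice given Con A were above all control mice. The rise after Con A was 4.18 ± 0.89 (limma, adjusted p = 0.00167), and 3.08 without control replicate 3, whose value was 1. Gsta2, beside it on chromosome 9, went down, from 415, 226, 60 and 202 in control to 28, 36, 35 and 42 in Con A + PBS and 37, 25, 36 and 29 with cells (-2.37 ± 0.44, limma adjusted p = 0.000679). The control values of Gsta2 ranged widely, but none came down to those after Con A. Gsta1 and Gsta2 were each in the table only through the group in which they were high, which favours these directions. The aligned transcripts of Gsta1 and Gsta2 were 97.2% identical, and 44.6% of the 50-base stretches of Gsta1 occurred in Gsta2. Some reads of this pair could therefore be placed on either gene.

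The start regions of the 4 members that rose, and of Gsta2, are printed to show how alike the 2 pairs are upstream. They run from 150 bases before to 30 after the RefSeq start of the gene (GRCm38.p6), and capitals mark GCGTG, the core of the xenobiotic response element, on either strand. Gsta1 is at chr9:78230519-78230698 on the plus strand, Gsta2 at chr9:78347116-78347295 on the minus strand, Gstp1 at chr19:4037883-4038062 and Gstp2 at chr19:4042192-4042371 on the minus strand, and Sult1e1 at chr5:87591582-87591761 on the minus strand.
Gsta1: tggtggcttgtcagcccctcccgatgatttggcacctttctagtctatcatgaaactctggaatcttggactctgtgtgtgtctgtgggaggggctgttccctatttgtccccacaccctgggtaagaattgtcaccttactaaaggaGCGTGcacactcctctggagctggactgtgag
Gsta2: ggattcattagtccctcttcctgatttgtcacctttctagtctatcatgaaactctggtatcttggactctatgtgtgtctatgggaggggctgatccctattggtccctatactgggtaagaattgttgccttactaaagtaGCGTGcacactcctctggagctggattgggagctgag
Gstp1: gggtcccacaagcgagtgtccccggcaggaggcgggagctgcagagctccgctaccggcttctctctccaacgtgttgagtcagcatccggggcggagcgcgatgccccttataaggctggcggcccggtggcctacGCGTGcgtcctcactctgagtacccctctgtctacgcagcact
Gstp2: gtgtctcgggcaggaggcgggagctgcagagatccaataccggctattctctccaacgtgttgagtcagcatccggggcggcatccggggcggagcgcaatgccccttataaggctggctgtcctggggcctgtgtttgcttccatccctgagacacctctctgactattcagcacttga
Sult1e1: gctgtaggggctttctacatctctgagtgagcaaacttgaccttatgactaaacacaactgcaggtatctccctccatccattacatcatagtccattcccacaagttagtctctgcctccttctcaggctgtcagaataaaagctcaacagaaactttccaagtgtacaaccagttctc

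Over the whole window from 250 bases before to 50 after the start, Gsta1 and Gsta2 were identical at 80.3% of aligned positions although one rose and the other fell, and Gstp1 and Gstp2 at 84.9%. Windows were found for 42 members, 50 windows in all. GCGTG was in 10 of the 50, of 9 members, and in 32.4% of the 32851 windows of all genes. The antioxidant response element core TGACNNNGC was in 3 of the 50, those of Gsta3, Gstm5 and Gstm7, and in 12.4% of all windows. A palindromic form of the HNF1 motif was in 0 of the 50 and in 0.01% of all windows. Both strands were searched, and a match says only that these letters are present.

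**Figure D3:**
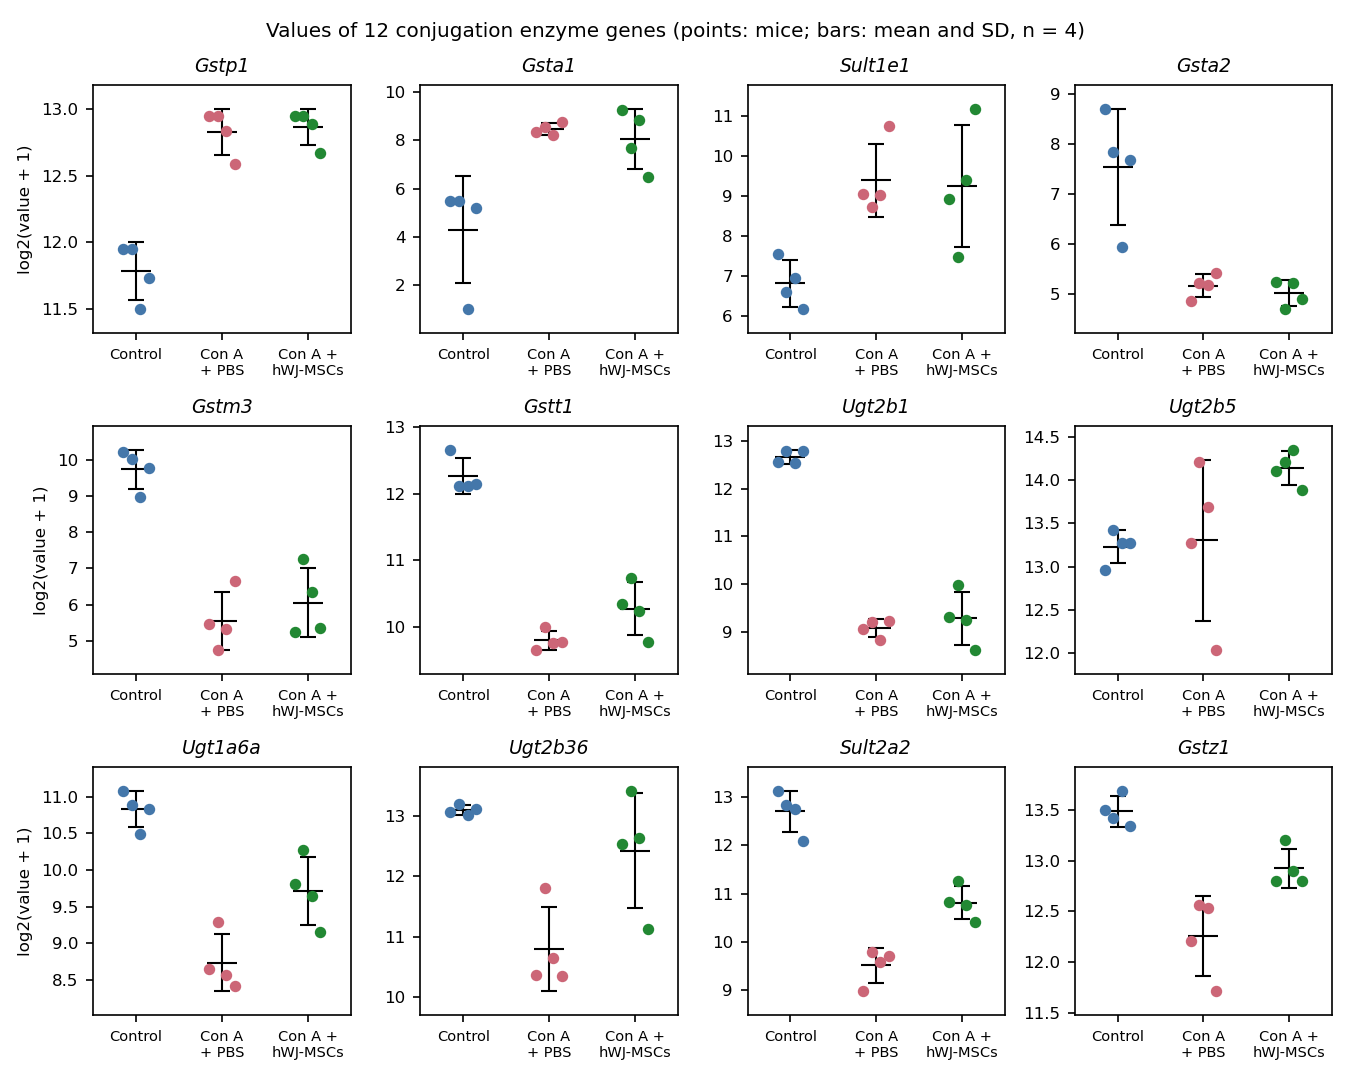
Log2(value + 1) (vertical axes, scaled for each gene) of 12 members in the 3 groups, with a point for each mouse and bars for the mean and SD (n = 4). Gstp1, Gsta1 and Sult1e1 are higher in mice given Con A, Gsta2 is lower where Gsta1 is higher, Ugt2b5 lacks the fall of Ugt2b1, and the bottom row holds 4 of the 6 members that were called higher with hWJ-MSCs.

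Other cell types moved with these changes. After Con A, all 5 neutrophil markers in the table were higher, their summed value going from 22 to 76 in control to 770 to 1721 in Con A + PBS mice, and of 6 monocyte and macrophage markers 5 were higher and 1 lower. All 5 Kupffer cell markers were lower, from sums of 2910 to 4734 to sums of 148 to 341. Of the 5 hepatocyte markers, Apoa1 and Ttr were lower, and Apob and Hnf4a were not called. Alb, at the largest value of the table in every mouse, could not be called. Endothelial markers were lower in 4 and higher in 1 of 6, and stellate cell markers lower in 3 of 5. T cell and NK cell markers were in the table for 2 of 7 and 2 of 4 genes, all higher, those of cholangiocytes for 3 of 5, with 1 higher, and those of B cells for 0 of 4. Between cells and PBS, Cd14 was lower among 6 monocyte and macrophage markers, whose sums were 2463 to 4445 with cells and 5940 to 7287 with PBS. Of 6 endothelial markers 1 was higher and 1 lower, and of 5 stellate cell markers 1 was higher. Markers of the other types were not called. The part of these shifts in the changes of the conjugation enzymes was not tested.

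Infusion of hWJ-MSCs after Con A was compared with PBS to see whether the fall was smaller with the cells. Of the 49 members, 6 (12.2%) were called higher and 0 lower, where 4.2% of all genes were called higher and 4.38% lower. The 6 were Sult2a2, Gstm2, Ugt1a6a, Ugt2b36, Gstz1 and Gstm4. At an unadjusted p below 0.05 (limma), 18 of the 49 members were higher, a larger share than the 18% of all genes, and 0 were lower, beside 16.6%. The median change of the members was 0.35, with 38 of 49 above 0, beside 0.00024 over all genes, of which 5651 of 11289 were above 0. These changes and those after Con A share the Con A + PBS mice, so that a member low in those mice tends towards a fall in the first and a rise in the second. In 7 members all 4 mice with cells were above all 4 with PBS, which 11.9% of all genes had, and in 0 members all were below, which 11.6% had.

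The number of called members depended on single mice. Without Con A + hWJ-MSCs replicate 2, without its replicate 3 or without Con A + PBS replicate 1, 0 of the 49 members were called, and the calls over all genes fell with them, from 474 higher and 495 lower to 8 and 10, 4 and 3, and 5 and 2. Without Con A + hWJ-MSCs replicate 1, Con A + PBS replicate 3 or Con A + PBS replicate 4, 2 members were called, with 199, 252 and 136 genes called higher over the whole table. Without Con A + hWJ-MSCs replicate 4 and without Con A + PBS replicate 2 the counts were 13 and 14, and over all genes 630 and 846 were called higher. With only the 8 mice compared in the fit, 3 members were called, and 324 of all genes were higher.

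Sult2a2 had the lowest adjusted p of the 6. Its 1362 to 2448 with cells were all above the 502 to 878 with PBS, and the change was 1.31 ± 0.24 (limma, adjusted p = 0.0188). Ugt2b36, an Ugt2 enzyme of the chromosome 5 cluster, had 8544, 9428, 8248 and 8920 in control, 1310, 3596, 1609 and 1304 in Con A + PBS and 5925, 10972, 6329 and 2224 with cells. It was 1.63 ± 0.42 higher with cells (limma, adjusted p = 0.0321), although the mouse at 2224 overlapped with the PBS group. Ugt1a6a, a phenol glucuronosyltransferase, had 2173, 1896, 1444 and 1832 in control, 401, 628, 379 and 342 in Con A + PBS and 894, 1240, 797 and 568 with cells. Its difference was 0.98 ± 0.24 (limma, adjusted p = 0.027), with overlap in 1 mouse of each group. Of the 50-base stretches of Ugt1a6a 80.6% are shared with Ugt1a6b, which differed by 0.81 ± 0.29 and was not called (limma, adjusted p = 0.0712).

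The other 3 were GSTs. Gstm2 had 1619, 1550, 1176 and 1337 in control, 438, 308, 344 and 383 in Con A + PBS and 565, 776, 596 and 473 with cells, without overlap (0.70 ± 0.16, limma adjusted p = 0.0263). Gstm4 had 1262, 925, 800 and 1232 in control, 210, 313, 282 and 158 in Con A + PBS and 404, 643, 428 and 316 with cells, which were again all above PBS (0.89 ± 0.25, limma adjusted p = 0.0395). Gstz1 differed by 0.67 ± 0.18 (limma, adjusted p = 0.0367), with all 4 mice above the PBS group. Of the 6, Sult2a2 was lost in 3 of the 12 fits that left out a mouse, Gstm2 in 4, Gstz1 in 5, and Gstm4, Ugt1a6a and Ugt2b36 in 6.

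Several members came close to the limits. Sult1b1 passed the test but not the fold limit (adjusted p = 0.0495, fold 1.46, limma), and Sult1c2, Sult2a1 and Ugt1a1 had adjusted p of 0.0507, 0.0519 and 0.0533 (limma), with changes of 1.07, 1.43 and 0.46. Sult2a1 had 2908, 2908, 3273 and 4202 with cells, and only Con A + PBS replicate 2, at 2942, reached into that range. The members that had risen after Con A were not called, and their intervals were wide except for Gstp1. Gstp1 differed by 0.03, with an interval from -0.26 to 0.33. For Sult1e1 it was -0.14, from -1.56 to 1.28, for Gsta1 -0.42, from -2.33 to 1.5, and for Gstp2 -0.76, from -1.87 to 0.35. Ugt2b5, not called after Con A, was 0.84 ± 0.35 higher with cells and not called (limma, adjusted p = 0.109).

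**Figure D4:**
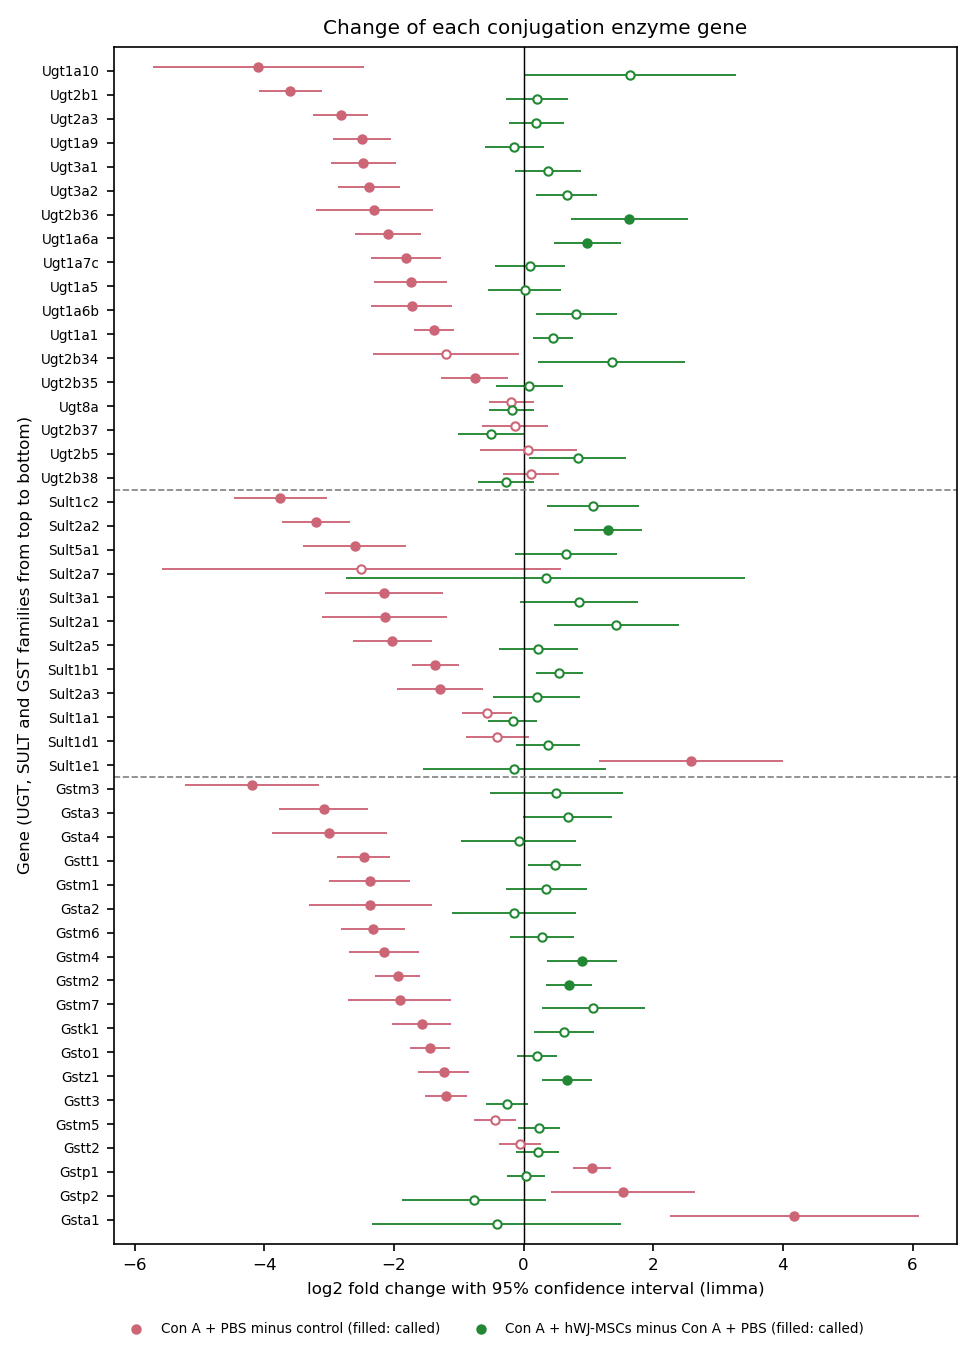
Log2 fold change with 95% interval (horizontal axis, limma) of each of the 49 members (vertical axis, by family) for Con A + PBS minus control (red) and for Con A + hWJ-MSCs minus Con A + PBS (green), with filled points for called members. Red points lie to the left of 0 in 43 members and green points to the right in 38. The 2 comparisons share the Con A + PBS mice.

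In each mouse, the median of the 18 UGTs relative to the control mean lay between -2.15 and -1.41 in Con A + PBS and between -1.56 and -0.66 in Con A + hWJ-MSCs mice. For the 12 SULTs these ranges were -2.27 to -1.10 and -1.36 to -0.95, and for the 19 GSTs -1.86 to -1.54 and -1.57 to -0.86. The mice with cells overlapped with the mice given PBS in each family. Con A + hWJ-MSCs replicate 2 was nearest to control in all 3 families.

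Against control, the mice given Con A and cells still had 33 members (67.3%) called lower, where 13.1% of all genes were, and 3 (6.12%) called higher, where 13.6% were. The median change was -1.24. Among the 44 members that were not in the table only through a group in which they were high, 30 were lower and 2 higher. The 3 members called higher were Gstp1, Sult1e1 and Gsta1, at 1.08 ± 0.13, 2.44 ± 0.65 and 3.76 ± 0.89. Sult1e1 overlapped with control, at 176 in 1 mouse with cells and 186 in 1 control mouse, and its difference was 1.79 without Con A + hWJ-MSCs replicate 4, while that of Gsta1 was 2.66 without control replicate 3. Called lower after Con A with PBS but not in mice given cells were Gstz1, Ugt2b36, Gstm7 and Sult2a1, whose differences from control with cells were -0.56 ± 0.18, -0.67 ± 0.42, -0.84 ± 0.37 and -0.72 ± 0.45. In Gstz1 and Gstm7 all 4 mice with cells were still below control, and Gstz1 passed the test (limma, adjusted p = 0.0252) but not the fold limit, at 1.48. Sult1a1, at -0.74 ± 0.18, and Ugt2b37, at -0.64 ± 0.23, were called lower only in this comparison. The call of Ugt2b37 was lost in 8 of the 12 fits that left out a mouse, without an eBayes trend, with only the 8 mice compared, with a replicate block and at a fold change above 2, and control replicate 3, at 522, lay above the other control mice at 230 to 250. The lower calls of Ugt2b35, Ugt1a6b, Sult3a1 and Ugt1a10 in this comparison were lost in 6, 5, 4 and 2 of the 12 fits. Ugt2b1 was still far below control at -3.39 ± 0.22, and Gstm3 was at -3.69 ± 0.48. In 32 members all 4 mice were below control, an arrangement of 17.3% of all genes, and in 3 all were above, of 20.6%. These 3 were Gsta1, Gstp1 and Ugt2b5, the last at 0.91 ± 0.35 and not called (limma, adjusted p = 0.0521). This comparison shares its control mice with the first and its treated mice with the second.

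To compare isoforms within a mouse, the 2 members with the highest mean of each subfamily with several members were set as a ratio, 9 ratios in all. With 4 mice against 4, the two-sided exact permutation test cannot give a p below 0.0286, and after adjustment over the 9 ratios 0 passed in any of the 3 comparisons. Unadjusted, 2 ratios reached this smallest p after Con A, 5 did between cells and control, and 0 between cells and PBS. A limma fit of the ratios, added after seeing the data, passed 2, 4 and 1.

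The ratios with the smallest p after Con A did not pass the adjusted test. The log2 ratio of Gstt1 to Gstt3 was 1.70, 1.60, 1.81 and 1.44 in control mice and 0.30, 0.75, 0.36 and 0.10 in Con A + PBS mice, a difference of -1.26 (exact permutation p = 0.0286, adjusted 0.129). With cells it was 1.28, 1.29, 1.17 and 0.69. The ratio of Ugt2b5 to Ugt2b34 was between 0.07 and 0.26 in control and between 1.01 and 1.99 in Con A + PBS mice, a difference of 1.27 with the same p values (exact permutation). Gsta3 to Gsta4 and Ugt3a2 to Ugt3a1 differed by -0.08 and 0.08 after Con A, where the exact permutation p was 0.886 and 0.914. The ratio of Sult2a1 to Sult2a2 was between -0.72 and -0.04 in control and between 0.25 and 1.62 in mice with cells, a difference of 1.18 (exact permutation p = 0.0286, adjusted 0.0514), and Con A + PBS mice ranged from -0.39 to 1.74.

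**Figure D5:**
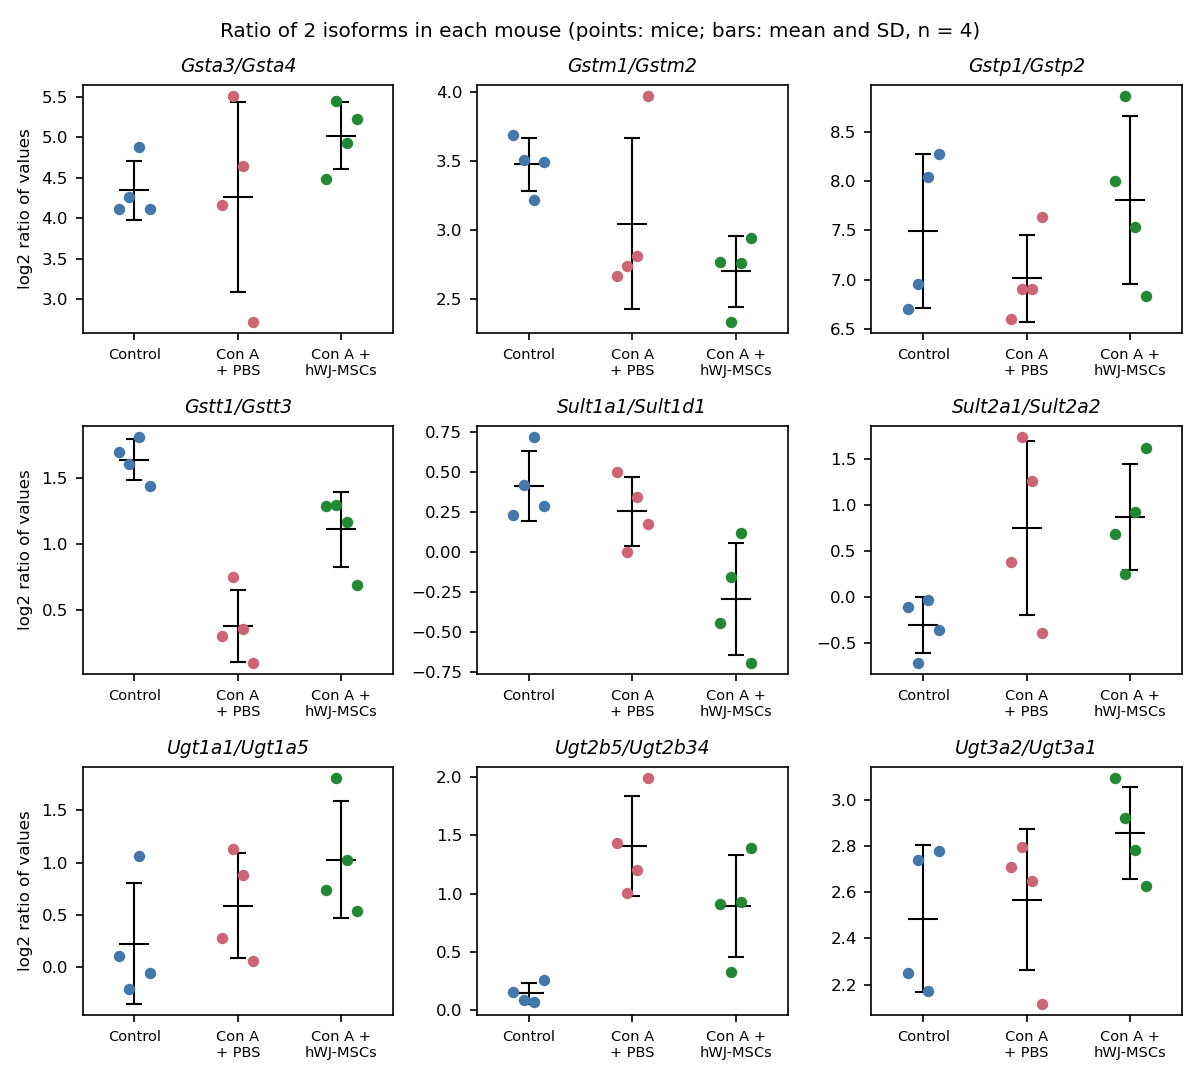
Log2 ratio of the values of 2 isoforms (vertical axes) in each mouse of the 3 groups for 9 subfamilies, with bars for the mean and SD (n = 4). The groups of control and Con A + PBS mice lie apart in Gstt1/Gstt3 and Ugt2b5/Ugt2b34 and overlap in the other 7 ratios.

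The genes that feed these enzymes were counted in the same way. After Con A, 19.5% of all genes were called higher and 19.2% lower. Of the 5 genes listed under UDP-glucuronic acid supply, 1 was higher and 0 lower after Con A, a higher share near that of all genes. Ugp2, Ugdh, Slc35d1 and Gusb were not called. The gene called higher was Slc35b1, a nucleotide carrier, which rose from 648 ± 115 (SD, n = 4) to 1686 ± 91.8 (log2 change 1.39 ± 0.20 (SE), limma adjusted p = 0.000109). Of 8 genes of PAPS supply, 4 were lower, beside 19.2% of all genes, and 0 higher, beside 19.5%. Papss2, which makes PAPS, went from 5526 ± 680 (SD, n = 4) to 732 ± 186, and to 1112 ± 275 with cells, a Con A change of -2.95 ± 0.21 (SE, limma adjusted p = 6e-07). The sulfate carrier Slc26a1 fell by 1.36 ± 0.34 (limma, adjusted p = 0.00476).

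Of 14 genes of glutathione synthesis and turnover, 3 were higher and 7 lower after Con A, beside 19.5% and 19.2% of all genes, so that the higher share is near that of all genes. Cth, which makes cysteine from cystathionine, fell by 2.89 ± 0.49 (limma, adjusted p = 0.00038). Mat1a, which makes S-adenosylmethionine, was higher by 1.41 ± 0.44 (limma, adjusted p = 0.0156), with 72892 to 148316 in control and 148316 to 341028 in Con A + PBS mice. The value of 341028, the largest in the table, was reached by 25 genes in at least 1 mouse and by Mat1a in 3 of the 4 Con A + PBS mice, so the size of its change is limited by that ceiling. Of 18 genes listed as other conjugating and detoxifying enzymes, Nqo1, Ephx1 and Ephx2 among them, 10 were lower and 2 higher, beside 19.2% and 19.5%. Inmt, a methyltransferase of indolamines, fell by 7.2 ± 0.69 from 5730 to 10336 in control to 26 to 287 in Con A + PBS mice (limma, adjusted p = 5.25e-06), more than any of the 49 members. Acsm5, an acyl-CoA synthetase of glycine conjugation, fell by 3.07 ± 0.25 and was 1.08 ± 0.25 higher with cells than with PBS (limma, adjusted p = 1.51e-06 and 0.0255). With cells, 4 of these 18 genes were higher than with PBS and 0 lower, beside 4.2% and 4.38% of all genes. The other lists did not share this. Of the 14 glutathione genes 1 was higher and 2 lower with cells, and of 20 regulators, described below, 1 was higher and 3 lower. For UDP-glucuronic acid supply 0 of 5 genes were called with cells, and for PAPS supply 0 of 8.

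Of 20 regulators known to act on conjugation genes, 4 were higher and 5 lower after Con A, which is near the 19.5% and 19.2% of all genes. Nr1i3 (CAR), a nuclear receptor that induces UGTs, SULTs and GSTs, was between 3751 and 4044 in control, 676 and 2343 in Con A + PBS and 2830 and 4113 in Con A + hWJ-MSCs mice. It fell by 1.41 ± 0.30 after Con A and was 1.35 ± 0.30 higher with cells (limma, adjusted p = 0.0017 and 0.0252). The Con A + PBS mice were below both other groups, which overlapped each other. Maff, a small Maf protein, was between 42 and 60, 213 and 844, and 29 and 126 in the same order, with changes of 2.94 ± 0.46 and -2.31 ± 0.46 (limma, adjusted p = 0.000189 and 0.0208). Whether the calls of Nr1i3, Maff and Acsm5 with cells held when a mouse was left out is not given here. Over all genes, calls between cells and PBS fell to 4 higher and 3 lower without Con A + hWJ-MSCs replicate 3. Nfe2l2 (NRF2), whose protein drives many GST genes and is regulated mainly after translation, was at 0.02 ± 0.14 after Con A and was not called (limma, adjusted p = 0.922). Nfe2l2 is given here because of its known role and not by the rule for naming genes.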

How the data were processed

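Liver RNA of 12 mice, 4 in each group, was sequenced as poly(A) libraries with paired reads of 150 bp, and mice were assigned to groups from the sample labels. The table deposited by the authors holds 1 score per gene and mouse, whole numbers that were already normalized between mice. Totals ran from 17649654 to 17657159 and the median was 352 in every mouse. The submitters' processing notes name Bowtie2 2.2.1, RSEM 1.2.18 and mm10 without their role, and the methods name DESeq2 for the authors' own comparison. The normalization is not given in the sources used here. Depth is unknown, so that no counting error is given, and no count test was run. No strand setting was found.

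A limma 3.58.1 model (R 4.3.3, lmFit, eBayes with trend) of the 3 groups was run on log2(score + 1) without covariates, and p-values were adjusted by Benjamini-Hochberg over 11289 genes. The script was tested on simulated data. Isoform ratios were compared by exact permutation tests (scipy 1.17.1). Transcripts were matched in GENCODE M21 (49 of 49 members found), shared 50-base stretches were counted, and pairs were aligned with Biopython. Promoters came from RefSeq (GRCm38.p6). All values for each mouse were given for the member with the highest mean and for the members with the largest called Con A change in each direction of a subfamily, and for every member called with cells; for Gsta2, Ugt2b34 and Sult2a7 values were added after they had been seen. In each pathway list, the 2 called genes with the largest Con A change were named. Members and lists were chosen with earlier results of these data known. The alternatives tried were a pseudocount of 10, quantile normalization, median centring, a mean value of at least 100, no trend, only the 8 mice compared, a fold change above 2, a replicate block and leaving out each mouse. Because the median was already equal in every mouse, median centring could change no call. Quantile normalization of values already normalized between mice is a weak check for the same reason, and it left the member counts as they were. Replicates are separate mice.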

Additional observations from a re-analysis of the deposited data

Results flagged for a closer look

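In each set of 4 mice of a member, the highest or lowest mouse was set against the range of the set by Dixon's criterion at the 95% level. Of 147 sets, 12 had such a mouse, and chance alone gives about 1 in 20.

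In control mice, Gsta1 was at 1 in replicate 3, below the other 3 mice at 36 to 44. Gstt1 was at 6494 in replicate 1, above 4440 to 4530, and Ugt2b37 was at 522 in replicate 3, above 230 to 250. Ugt3a2 was at 8542 in replicate 4, where the other 3 mice had the same value of 8917, so that any different mouse would have stood out.

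In Con A + PBS mice, Gsto1 was at 804 in replicate 4, above 625 to 640, and Sult1e1 was at 1729 in the same mouse, above 425 to 527. Ugt3a2 was at 2400 in replicate 2, above 1462 to 1530, and Sult1b1 at 277 in the same mouse, where the other 3 had 228. Sult2a7 was listed at 0 in replicate 1, below 27 to 54.

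In Con A + hWJ-MSCs mice, Gstt3 was at 696 in replicate 2, above 535 to 543, and Ugt1a10 at 34 in the same mouse, above 16 to 18. Sult1b1 was at 334 in replicate 1, below 354 to 358.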

How the results depend on the processing

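After Con A, the counts of members called lower (35 to 36) and higher (3 to 4) changed little when a mouse was left out, and no member reversed its call in any comparison. Between cells and control the ranges were 29 to 34 and 3 to 4. Between cells and PBS the number called higher was 0 to 14 without a mouse, 3 with only the 8 mice, 2 at a fold change above 2 and 11 with a replicate block, and 0 were called lower throughout. Over all genes, 4 to 846, 324, 163 and 679 were called higher in these settings, against 474. The cause was not tested. Replicate numbers belonged to different mice, same-numbered mice correlated between -0.118 and 0.375, and only 2 of 4 Con A + PBS mice correlated best with their own number, so the block had no basis in the design. Isoform ratios passed in 2, 1 and 4 cases in a limma fit (Con A, cells against PBS, cells against control), in 2, 1 and 5 with the block, and in 2 to 4, 0 to 1 and 0 to 5 without a mouse. For single members, 59 calls were lost and 28 gained without a mouse and 1677 kept their side of the limits, and in other settings 18 were lost, 14 gained and 1126 kept theirs. Unknown depth limits what the low values of Gstp2, Ugt1a10, Sult1c2 and Sult2a7 can show.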
